A study of Mustela putorius furo and Mus musculus with 4 samples.

Results

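The Sonic hedgehog (SHH) pathway was followed through the cell types of the developing cortex with 10 genes that carry the signal from the cell surface to the nucleus. The members are the receptor gene Ptch1, the signal transducer Smo, the transcription factors Gli1, Gli2 and Gli3, the decoy receptor Hhip, the coreceptors Boc, Cdon and Gas1, and the inhibitor Sufu. They were chosen by name, by a rule that uses no measured value but with earlier results of these data known, and are 10 of the 17170 genes of the mouse table. Of the 22008 genes measured in ferret 9 are members, and Hhip was not analysed here in that species. The mouse data are a pair of libraries from CD1 cortex at E18, 1 from a conditional knockout (hGFAP-Cre;Smo F/F, called Smo-cKO) and 1 from a littermate control. The control is called Smo F/F in the study's methods and wild type in the labels. In both mouse groups CellTrace Yellow (FlashTag), a dye that marks cells dividing at the ventricle, was injected a day before the cells were collected and sorted. The hGFAP-Cre driver acts in radial glial (RG) cells and so in the cells that they produce. The ferret data are wild type cortex at E39. Both labelled ferret samples come from the same embryo and appear in the table as a pair of barcode sets that could not be tied to a sample, so the sets are called 1 and 2 and count as technical.

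SHH is a secreted protein. It binds PTCH1, which without ligand keeps the membrane protein SMO inactive. Active SMO lets GLI proteins, otherwise held by SUFU and processed to repressors, activate target genes. Among these targets are Gli1, Ptch1 and Hhip themselves, so that their mRNA is used as a readout of the signal. BOC, CDON and GAS1 help ligand to bind, and HHIP takes it away. In the cortex the pathway is known for its part in the production of olfactory bulb interneurons and oligodendrocytes at the end of neurogenesis, and GLI3 for its repressor role in dorsal progenitors.

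The 3 Gli mRNAs are related, and the counts can tell the genes apart only where their sequences differ. The coding stretch of 90 bases in which they were most alike within single exons is therefore shown, from GENCODE vM21 on GRCm38, with capitals for the bases that all 3 share.
Gli1: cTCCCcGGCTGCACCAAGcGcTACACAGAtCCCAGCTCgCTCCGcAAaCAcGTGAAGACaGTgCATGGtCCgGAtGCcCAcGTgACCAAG
Gli2: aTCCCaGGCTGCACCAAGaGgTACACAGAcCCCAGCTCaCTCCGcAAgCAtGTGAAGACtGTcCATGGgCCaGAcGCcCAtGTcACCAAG
Gli3: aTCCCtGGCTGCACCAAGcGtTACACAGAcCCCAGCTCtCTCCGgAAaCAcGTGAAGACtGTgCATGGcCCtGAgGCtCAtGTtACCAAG
Of the 90 bases, 73 were the same in all 3 genes. The stretch lies in exon 11 of Gli1 (chr10:127333691-127333780, minus strand), exon 12 of Gli2 (chr1:118842090-118842179, minus strand) and exon 13 of Gli3 (chr13:15720073-15720162, plus strand). Over the whole coding sequences the longest run shared exactly was 23 bases between Gli1 and Gli2, 14 between Gli1 and Gli3 and 25 between Gli2 and Gli3. Exons of Arhgap9 overlap Gli1 on the opposite strand, and the sources used here do not say whether counting used strand. Arhgap9 had 0 unique molecular identifiers (UMIs) in RG cells of both libraries. In microglia it had 21 UMIs in control and 53 in Smo-cKO, while Gli1 had 0 in both. No member shared exons with another gene of the table on its own strand.

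Cells were sorted into gates by the number of marker genes with a UMI, none of them a member. A gate is a range of marker detection and not a cell type. Mouse cells kept numbered 10498 in control and 7209 in Smo-cKO, with medians of 4034 and 4836 UMIs, and 28 barcodes occurred in both. The RG gates (Sox2, Pax6, Slc1a3 and others) held 2120 and 1537 cells, split into non-cycling, cycling and Gfap-Ecrg4 cells. Gates for Eomes, the marker of intermediate progenitor cells of pyramidal neurons (PyNs), held 4800 and 2771 cells, and PyN gates held 1956 and 1946. A gate for the interneuron genes Dlx and Gad held 247 and 304. Markers left out of the gates set the RG gates apart, with a summed level of 33940 CPM (UMIs of a gene in each 1000000 UMIs of the same cells) against 1143 in PyN gates of control. The Dlx-Gad gate is called by its genes. With 1 library per genotype no test was possible. Intervals are exact, at 95%, and cover counting error only, and a difference between libraries cannot be told apart from one between embryos or preparations.

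Smo, the targeted gene (chromosome 6, from 29735503 to 29761365 on GRCm38), encodes the transducer that SHH switches on. It was lower in Smo-cKO in the RG and Eomes gates. In cycling RG cells 85 UMIs made 16.1 CPM (12.9 to 19.9) in control and 1 UMI made 0.229 CPM (0.00579 to 1.27) in Smo-cKO, a ratio of 0.0142 (0.000356 to 0.0813). In Eomes cells with a Neurog2 UMI, called early, the level was 6.78 CPM (5.25 to 8.61) in control and 0.358 (0.0738 to 1.05) in Smo-cKO, and in dividing Eomes cells it was 7.89 and 1.38 CPM.
In control, among these gates, Smo was thus highest in RG cells, lower in Eomes cells and lowest in PyNs. Newborn PyNs, set by a Neurod1 UMI, held 7 UMIs (1.88 CPM) in control and 3 (0.651 CPM) in Smo-cKO. Their intervals, 0.756 to 3.87 and 0.134 to 1.90 CPM, overlapped. The Dlx-Gad gate held 9 UMIs in control and 2 in Smo-cKO, too few for a ratio.
Over all cells, Smo-cKO had 20 Smo UMIs against 402 in control, and 5 of the 20 were in 179 microglia, a cell type of another origin (2.70 CPM, 0.878 to 6.31, against 0 UMIs in 100 control microglia). The share of cycling RG cells with a Smo UMI was 9.31% (7.44 to 11.5%) in control and 0.216% (0.00546 to 1.20%) in Smo-cKO, at median depths of 5556 and 8994 UMIs. Thinned to 2900 UMIs per cell it was expected at 4.59% and 0.0663%. In Smo-cKO this lies below the thinned share of 0.403% of its microglia, in which 5 UMIs leave a wide interval. The sources used here do not say which part of the mRNA the counts cover, so they show fewer counted transcripts and not the deletion.

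**Figure D1:**
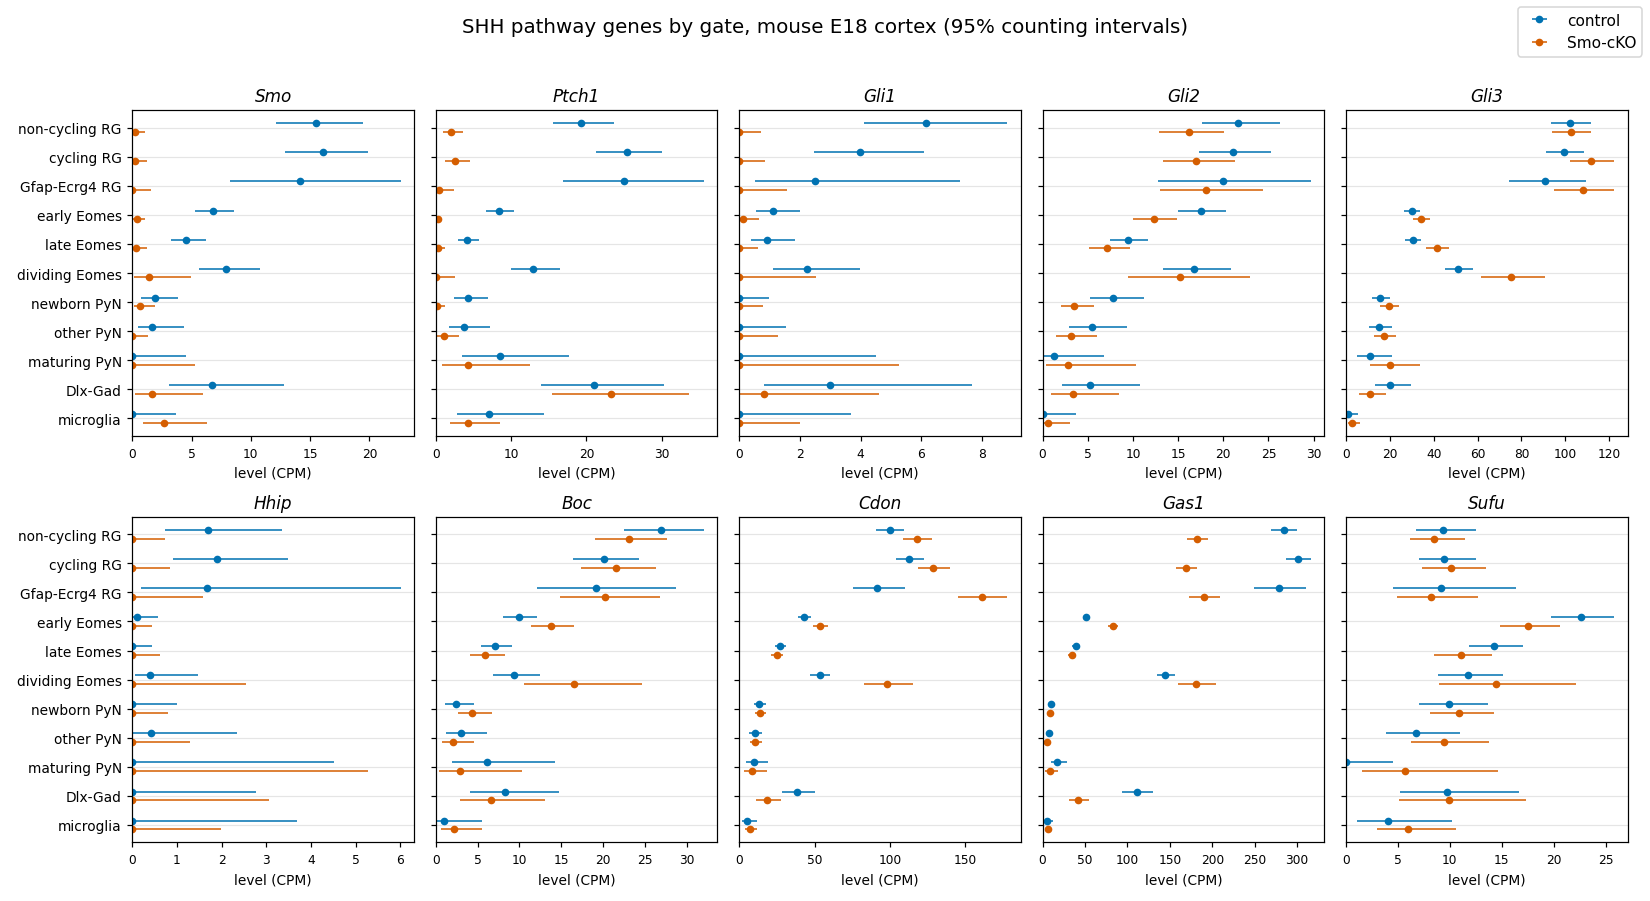
Level of each member in CPM (x axis, linear from 0, a scale of its own in each panel) in 11 gates of mouse cortex (y axis), for the control and the Smo-cKO library. Points are summed UMIs of a gate over its total, bars are exact 95% counting intervals, and there is 1 library per genotype. Smo, Ptch1 and Gli1 lie near 0 in the Smo-cKO RG gates, while Gli3 stands at 102 CPM in both libraries in non-cycling RG cells.

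Ptch1, which encodes the SHH receptor and is itself a target (chromosome 13, from 63508328 to 63573598), was higher in RG cells of control than in early and late Eomes cells and newborn PyNs. The level was 25.4 CPM (21.3 to 30.1) in cycling RG cells and 19.3 CPM (15.5 to 23.7) in non-cycling RG cells, which were not separated by their intervals. Early Eomes cells were at 8.40 CPM, late ones, with Eomes but no Neurog2 UMI, at 4.18 and newborn PyNs at 4.30.
In Smo-cKO the same gates held 2.52 CPM (11 UMIs), 1.97 CPM (10 UMIs), 0.239 CPM (2 UMIs), 0.340 CPM (2 UMIs) and 0.217 CPM (1 UMI). Ptch1 was thus lower in all 5 of these gates, the last with too few UMIs for a ratio. The ratio of Smo-cKO to control was 0.0992 (0.0483 to 0.183) in cycling RG cells and 0.0284 (0.00339 to 0.106) in early Eomes cells. Dividing Eomes cells had 64 UMIs in control and none in Smo-cKO, 6.26-fold lower against a floor of 3 UMIs over the group. The exact interval of that ratio reached up to 0.202.

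Gli1, the transcription factor that serves as a target readout (chromosome 10, from 127329882 to 127341974), was all but absent from Smo-cKO, with 2 UMIs over all cells against 135 in control. Its control level was 6.16 CPM (4.12 to 8.84, 29 UMIs) in non-cycling and 3.98 CPM (2.46 to 6.08, 21 UMIs) in cycling RG cells. The intervals overlap. In Smo-cKO both gates held 0 UMIs, 10.4-fold and 5.80-fold lower against the floor of 3 UMIs. The exact intervals of these ratios reached up to 0.126 and 0.232.
Eomes cells held 30 Gli1 UMIs in control (1.28 CPM) and 1 in Smo-cKO (0.0636 CPM), a ratio of 0.0497 (0.00122 to 0.299). All 1956 control PyNs lacked a Gli1 UMI, with an upper limit of 0.534 CPM.
Hhip, whose protein binds SHH and keeps it from PTCH1, had 46 UMIs in all control cells and 0 in Smo-cKO. Against the floor it was 12.5-fold lower, with an exact upper limit of the ratio of 0.103. Of the 46 UMIs, 10 were in cycling and 8 in non-cycling RG cells, too few for a ratio in either gate. Over the 3 RG gates together, 20 UMIs in control and 0 in Smo-cKO made Hhip 7.01-fold lower against the floor. The exact upper limit of that ratio was 0.193. The value over all cells also holds cells outside the reported gates, and the part of cell composition in it was not tested.

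The 3 targets were also counted per cell. A UMI of at least 1 of Gli1, Ptch1 and Hhip was found in 16.0% of control and 1.94% of Smo-cKO cycling RG cells. The shares were 10.4% and 1.02% in non-cycling RG cells and 4.08% and 0.180% in Eomes cells. In all 3 gates the intervals of the libraries were apart, although Smo-cKO cells were deeper.
UMIs of at least 2 of the 3 genes were found in 40 control cells. No such cell was among the 7209 of Smo-cKO, which allows a share of up to 0.0416% by the floor of 3 counts and 0.0512% by the exact interval. Of 127 control cells with a Gli1 UMI, 24 also had a Ptch1 UMI (18.9%), against 6.0% of all control cells. Within gates, 4 of 19 Gli1 cells had a Ptch1 UMI in cycling RG cells, where 115 of all 849 cells did. In non-cycling RG cells it was 5 of 28, beside 81 of 1050, and in Eomes cells 4 of 30, beside 167 of 4800. The Gli1 cells of all gates were deeper, with a median of 6198 UMIs against 4034 over all control cells. The parts of depth and cell type in this were not tested.
Beside these shares, 7.0% of control and 4.47% of Smo-cKO microglia, of median depths 7880 and 7568, had a Ptch1 UMI. At 2900 UMIs per cell the expected Ptch1 share was 6.93% and 0.756% in cycling RG cells and 1.33% and 1.11% in microglia. The Smo-cKO RG cells were thus at or below the microglial share.

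The members were set against all genes with at least 20 UMIs over both libraries in a gate, counting those past 2-fold. In non-cycling RG cells 3 of 9 members were past 2-fold lower (Smo, Ptch1 and Gli1), where 2.47% of 11350 genes were lower and 3.36% higher. Cycling RG cells gave the same 3 of 9, beside 3% lower and 2.32% higher, and so did Eomes cells, beside 2.76% lower and 3.02% higher. PyNs gave 1 of 7 (Ptch1, 32 and 7 UMIs), beside 2.33% lower and 1.74% higher. With a minimum of 50 UMIs this call was lost (0 members), and at a fold of 1.5 there were 2. Gli1 was also under 50 UMIs in the non-cycling RG, cycling RG and Eomes gates. The Dlx-Gad gate gave 2 of 5 (Cdon and Gas1), beside 4.27% lower and 3.85% higher.
No member was past 2-fold higher in any of the 5 gates. Smo, Ptch1 and Gli1 were already reported by the paper as lower in RG cells of these libraries, and Smo is the targeted gene. Every member counted as lower in the RG, Eomes and PyN gates met the minimum of UMIs through control alone, so these counts describe the members and support nothing further. The median log2 ratio of the members that met the minimum was -0.42 in non-cycling and -0.31 in cycling RG cells, against 0.01 and -0.03 over all genes. It was -0.22 in Eomes cells and 0.03 in PyNs, against 0.05 and 0.04. In non-cycling and cycling RG cells this median was the value of Gli2. The medians include the members counted as lower, so they too only describe the members.

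**Figure D2:**
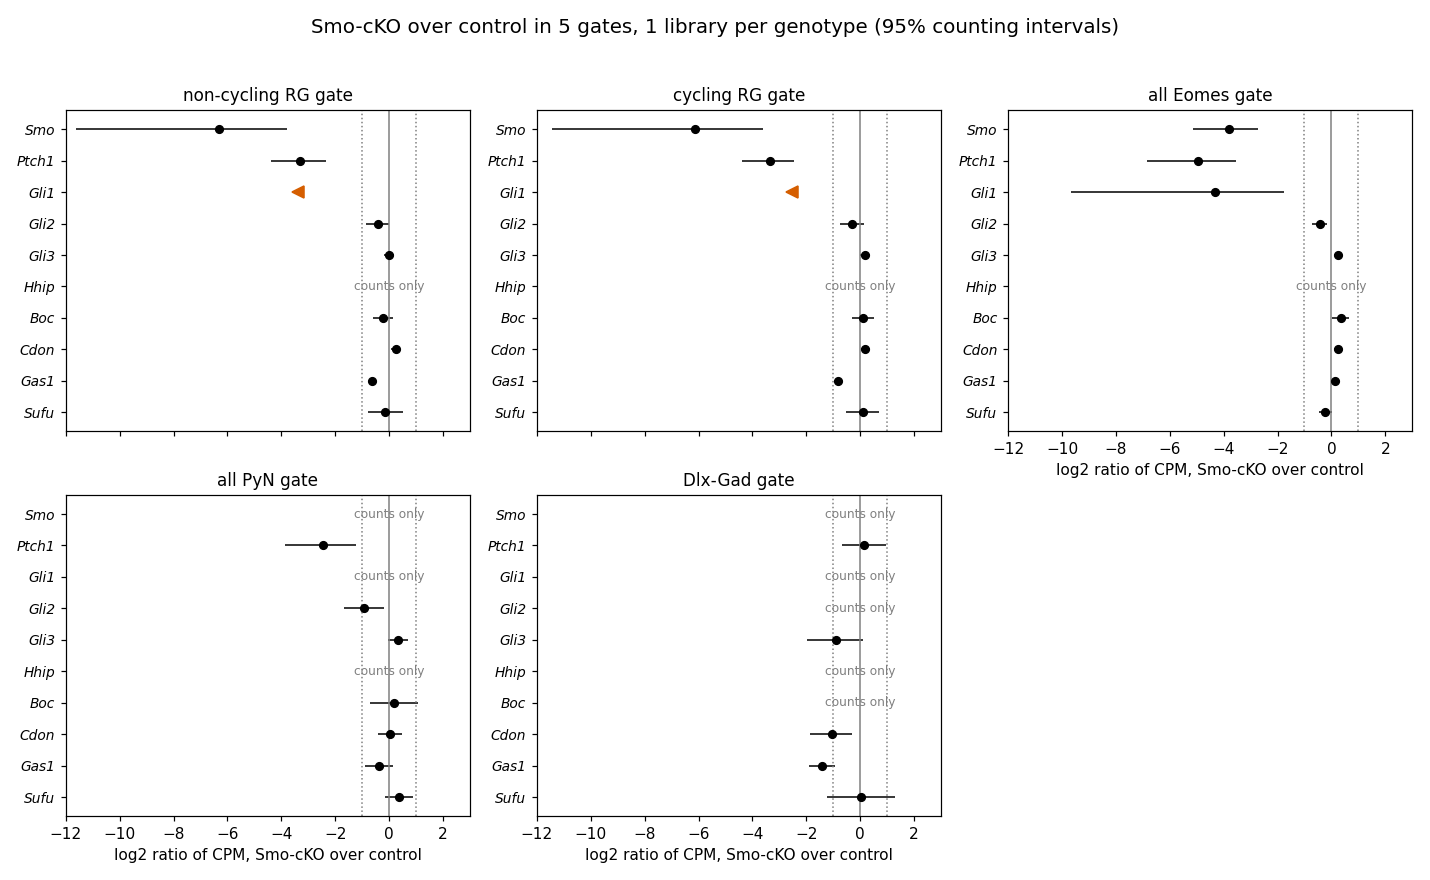
Log2 ratio of CPM, Smo-cKO over control (x axis), for each member (y axis) in 5 gates. Black points have exact 95% counting intervals. Orange arrowheads are values at a floor of 3 UMIs where Smo-cKO had none, drawn without their intervals. Dotted lines mark 2-fold, and members with fewer than 20 UMIs are marked as counts only. Ptch1 lies left of the dotted line in 4 gates and at a ratio of 1.11 in the Dlx-Gad gate.

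Among the coreceptors, Gas1 (chromosome 13, from 60174405 to 60177365), whose protein is anchored to the cell surface and presents SHH, differed between gates. It was lower in Smo-cKO RG cells and higher in early Eomes cells. Non-cycling RG cells were at 284 CPM (269 to 300) in control and 182 (171 to 194) in Smo-cKO, a ratio of 0.642 (0.589 to 0.698). Cycling RG cells were at 301 and 169 CPM, a ratio of 0.561 (0.513 to 0.613), and Gfap-Ecrg4 RG cells at 279 and 190 CPM (0.684, 0.592 to 0.790).
The 3 RG gates shared this lower level. Early Eomes cells were higher in Smo-cKO, at 82.8 CPM (76.8 to 89.2) against 51.4 (47.0 to 56.1), a ratio of 1.61 (1.44 to 1.81), and late Eomes cells were at 34.6 against 39.3 CPM (0.882, 0.738 to 1.05). Dividing Eomes cells had a ratio of 1.25. Held-out RG markers (Fabp7, Vim, Nes, Ptprz1 and Dbi) summed to 6948 CPM in the early Eomes gate of Smo-cKO and 5301 in that of control, and their part in the Gas1 level was not tested.

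Cdon (chromosome 9, from 35421128 to 35507652) and Boc (chromosome 16, from 44485049 to 44558897) encode related membrane proteins of the immunoglobulin superfamily that bind SHH. Neither was past 2-fold in the RG gates. Cdon was at 99.8 CPM (90.9 to 109) in control and 118 (109 to 128) in Smo-cKO in non-cycling RG cells, a ratio of 1.18 (1.05 to 1.34), and at 113 and 129 CPM in cycling RG cells (1.14, 1.02 to 1.28).
The difference was wider in cells with Gfap and Ecrg4 UMIs, genes of late and glial RG cells, where Cdon stood at 91.5 CPM (75.2 to 110) and 161 (145 to 178), a ratio of 1.76 (1.42 to 2.19). Dividing Eomes cells were at 53.4 and 97.9 CPM, a ratio of 1.83 (1.48 to 2.26), early ones had a ratio of 1.24 (1.09 to 1.42) and late ones of 0.908 (0.734 to 1.12). Held-out RG markers in the dividing gate summed to 9999 CPM in control and 13130 in Smo-cKO, and their part in its Cdon and Gli3 levels was not tested.
Cdon was low in newborn PyNs of both libraries, at 13.4 and 13.7 CPM. Boc was likewise lower in newborn PyNs than in RG cells, at fewer UMIs, from 27.0 CPM (22.5 to 32.1) in non-cycling RG cells of control and 23.1 (19.1 to 27.7) in Smo-cKO to 2.42 and 4.34 CPM in newborn PyNs. Its ratio was 0.856 (0.660 to 1.11) in non-cycling and 1.07 (0.803 to 1.43) in cycling RG cells, intervals that include 1, and 1.39 (1.05 to 1.83) in early, 0.839 (0.537 to 1.29) in late and 1.78 (1.04 to 2.98) in dividing Eomes cells.

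Gli3 (chromosome 13, from 15463235 to 15730026), the main source of GLI repressor, did not follow the targets. In non-cycling RG cells it was at 102 CPM in both libraries (93.4 to 112 in control, 93.8 to 112 in Smo-cKO), a ratio of 1.00 (0.882 to 1.13). Cycling RG cells were at 99.6 and 112 CPM (1.12, 0.991 to 1.27). The intervals of both ratios include 1 and exclude a 2-fold difference.
Gli3 was higher in Smo-cKO at 30.4 and 41.4 CPM in late Eomes cells (1.36, 1.14 to 1.63) and at 51.2 and 75.2 CPM in dividing ones (1.47, 1.16 to 1.85). Early Eomes cells were at 29.9 and 34.2 CPM (1.14, 0.969 to 1.35), an interval that includes 1. Newborn PyNs were at 15.6 and 19.5 CPM (1.25, 0.891 to 1.78).
Gli2 (chromosome 1, from 118834132 to 119053619), the main activator, had ratios below 1 in the RG, Eomes and newborn PyN gates. The intervals included 1 in each of the 3 RG gates and in late and dividing Eomes cells. The Gli2 ratio was 0.747 (0.552 to 1.01) in non-cycling RG cells, from 21.6 to 16.2 CPM, and 0.805 (0.592 to 1.09) in cycling ones. In early Eomes cells it was 0.702 (0.545 to 0.902), from 17.5 to 12.3 CPM, and in dividing ones 0.904 (0.538 to 1.46). Over all cells it was 0.705 (0.625 to 0.795), and over the 3 RG gates 0.795 (0.655 to 0.964). In newborn PyNs the level was 7.79 CPM (29 UMIs) in control and 3.47 CPM (16 UMIs) in Smo-cKO, a ratio of 0.446 (0.226 to 0.848).
Sufu (chromosome 19, from 46396896 to 46488804), whose protein binds and restrains GLI, was higher in early Eomes cells than in RG cells, at 22.7 CPM (19.8 to 25.8) in control and 17.5 (14.8 to 20.6) in Smo-cKO. Non-cycling RG cells were at 9.34 and 8.48 CPM, and microglia at 4.00 and 5.95. In control, Eomes cells as a whole were 1.85 times as high as non-cycling RG cells (1.35 to 2.59), and in Smo-cKO 1.75 times (1.26 to 2.48).

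The Dlx-Gad gate, cells with mRNA of interneuron genes, differed from the RG and Eomes gates in Ptch1. Ptch1 was there at 21.0 CPM (13.9 to 30.3) in control and 23.2 CPM (15.4 to 33.6) in Smo-cKO, 28 UMIs in each. The ratio was 1.11 (0.632 to 1.94), an interval that excludes the 0.0992 of cycling RG cells. In both libraries 24 cells of the gate held those 28 UMIs, and no cell had more than 2.
Gli1 had 4 UMIs in control and 1 in Smo-cKO in this gate, and Hhip 0 in both, so these targets gave no ratio. Gas1 was at 111 CPM (93.7 to 130) in control and 41.5 (30.8 to 54.7) in Smo-cKO, a ratio of 0.374 (0.266 to 0.519), and Cdon at 38.2 and 18.2 CPM (0.478, 0.276 to 0.802). The Gas1 ratio moved with the processing. It was 0.197 with 1 more marker per gate, 0.124 with thinned cells, 0.252 without the deepest cells and 0.183 as a mean over cells.
The contents of the gate differed between libraries. Cells had a median of 4674 UMIs in the control gate and 3142 in that of Smo-cKO, and 37.6% and 14.5% of them had the fewest markers allowed. Held-out cycling markers summed to 240 CPM in control and 87.1 in Smo-cKO, and held-out RG markers to 4548 and 3551 CPM. Held-out Eomes markers summed to 456 CPM in control and 172 in Smo-cKO. The part of these contents in the Ptch1, Gas1 and Cdon levels was not tested.

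Beyond the members, 41 genes of the pathway were counted by role, of which 40 are in the mouse table and Shh was not analysed here. In non-cycling RG cells 29 of them had enough UMIs, of which 2 were past 2-fold lower and 1 higher, beside 2.47% and 3.36% of all genes. In cycling RG cells 5 of 29 were lower and 1 higher, beside 3% and 2.32%. In Eomes cells 4 of 32 were lower and 1 higher, beside 2.76% and 3.02%. PyNs gave 1 lower of 24, beside 2.33%, and the Dlx-Gad gate 2 lower of 22, beside 4.27%. The single genes that were higher are thus near the share of all genes.
The list for kinases and degradation holds 10 genes, some of which encode proteins that phosphorylate GLI or mark it for cleavage. None with enough UMIs was past 2-fold in any of the 5 gates. In the Dlx-Gad gate 8 of the 10 had enough UMIs, and in the other gates all 10. Gsk3b, the kinase gene of that list with the most UMIs, had ratios from 0.858 (0.799 to 0.920) in cycling RG cells to 1.19 (1.07 to 1.33) in the Dlx-Gad gate. In the list for signal and cilium, Evc2 was past 2-fold lower in cycling RG cells (23 and 7 UMIs, 0.368, 0.133 to 0.885). Grk2, a kinase gene with the most UMIs of that list, had a ratio of 1.56 (1.26 to 1.93) in non-cycling RG cells. For ligand release, Disp1 was higher in cycling RG cells (11 and 20 UMIs), Scube1 in non-cycling RG cells (10 and 33 UMIs) and Scube2 in Eomes cells (6 and 21 UMIs).
Of genes for reception, Gpc3, a glypican gene, was at 12.1 CPM in control and 4.35 in Smo-cKO in cycling RG cells (0.359, 0.203 to 0.606).

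Of the 11 known targets outside the member list, 2 of the 6 with enough UMIs were past 2-fold lower in non-cycling RG cells. The counts were 3 of 7 in cycling RG cells, 4 of 7 in Eomes cells, 1 of 5 in PyNs and 2 of 7 in the Dlx-Gad gate. In these gates 2.33% to 4.27% of all genes were lower, and none of the targets was higher. The paper had already reported Cdk6 and Ccnd1 as lower in RG cells of these libraries. These counts therefore describe the listed genes and support nothing further. Cdk6, a kinase gene of the cell cycle, was lower in all 5 gates. It went from 197 to 48.7 CPM in Eomes cells (0.247, 0.228 to 0.267) and from 77.6 to 16.9 CPM in PyNs (0.218, 0.179 to 0.263). Its ratio was lowest in the Dlx-Gad gate, from 118 to 13.3 CPM (0.112, 0.0626 to 0.188). The part of that gate's differing contents in this was not tested.
Ccnd1, a cyclin gene, was past 2-fold lower in both RG gates and in Eomes cells, where it was at 27.2 and 7.57 CPM (0.278, 0.227 to 0.339). In the Dlx-Gad gate it was at 37.4 and 53.9 CPM (1.44, 0.981 to 2.13), an interval that includes 1. Ccnd2, the target with the most UMIs, had ratios of 1.52 (1.44 to 1.60) in cycling RG cells and 0.752 (0.729 to 0.775) in Eomes cells.
Bcl2, a survival gene, was at 39.8 and 14.9 CPM in cycling RG cells (0.374, 0.279 to 0.496) and 7.55 and 2.74 CPM in Eomes cells (0.362, 0.253 to 0.508). Foxm1, a cell cycle gene, was at 8.74 and 3.44 CPM in Eomes cells (0.393, 0.285 to 0.532) and had 20 and 4 UMIs in the Dlx-Gad gate. Held-out cycling markers were lower in Smo-cKO Eomes cells too, at 56.4 CPM against 124, and their part in Foxm1 and Cdk6 was not tested.

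Members were also compared by the likeness of their levels across 23 gates of at least 50 cells, both libraries together, with log2(CPM + 1). The points share libraries and depth and include both genotypes, so these are descriptions. Smo and Ptch1 were lower in most Smo-cKO gates, so their r mixes genotype with cell type. In control alone Smo fell from 15.5 CPM in non-cycling RG cells to 6.19 in Eomes cells and 1.59 in PyNs. Gli3 fell along the same gates, from 102 to 34.6 and 14.9 CPM. Gli3 was most like Sfrp1 (Pearson r of 0.985), Acot1 (0.985), Slitrk2 (0.973), Hmgn3 (0.969) and Scrn1 (0.957) among 12524 genes. Of the members compared, Gli2 (0.929), Cdon (0.917), Boc (0.897) and Gas1 (0.825) came near it and Sufu (0.374), Smo (0.260) and Ptch1 (-0.12) did not.
Ptch1 was most like Tmem256 (0.807), Sorcs2 (0.795), Ccnd1 (0.757), Tpd52l1 (0.746) and Tiparp (0.719), and of the members compared it was nearest to Smo (0.708). Sufu, at 0.374 and -0.159, was far from both.

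In ferret the members were measured in 10185 and 13052 cells of sets 1 and 2, with medians of 2556 and 3563 UMIs, of which 306 and 484 were in the RG gates and 7765 and 9111 in the PyN gates. The sets were not alike. Ribosomal genes made a median of 15.6% of UMIs in set 1 and 12.5% in set 2, and all genes tested in non-cycling RG cells were at a median of 1.11 times in set 2 over set 1. All 9 members were higher in set 2 in that gate, where 63.6% of all genes were, so values are given per set.
GLI3 was at 461 CPM (401 to 527) in set 1 and 643 (595 to 693) in set 2 in non-cycling RG cells, and at 17.8 and 13.02 CPM in newborn PyNs. SMO was at 23.6 (11.8 to 42.2) and 38.3 CPM (27.4 to 52.2), against 1.32 and 1.73 in newborn PyNs. GAS1 was at 124 and 205 CPM in non-cycling RG cells, against 4.95 and 5.73 in newborn PyNs.
These 3 genes were higher in non-cycling RG cells than in newborn PyNs in both sets. GLI1 was sparse, with 4 and 12 UMIs in non-cycling and 2 and 15 in cycling RG cells.

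PTCH1 did not share that order in ferret. Newborn PyNs were at 18.8 CPM (14.2 to 24.4, 57 UMIs) in set 1 and 30.9 (27.7 to 34.3, 339 UMIs) in set 2, beside 19.3 (8.82 to 36.6, 9 UMIs) and 29.7 (20.2 to 42.2, 31 UMIs) in non-cycling RG cells. Late Eomes cells were at 7.32 CPM (3.16 to 14.4) and 9.62 (5.96 to 14.7), below newborn PyNs by more than the intervals in set 2, while those of set 1 just met. Dividing Eomes cells were at 18.1 and 11.4 CPM, and maturing PyNs, set by a Mef2c UMI, were at 17.6 (15.6 to 19.8) and 23.8 (21.9 to 25.9).
Microglia, at 6.92 CPM (0.838 to 25.0, 2 UMIs) and 14.2 (3.88 to 36.5, 4 UMIs), held too few UMIs to be set apart from PyNs. The share of newborn PyNs with a PTCH1 UMI, expected at 2900 UMIs per cell, was 5.17% in set 1 and 8.62% in set 2, against 1.75% and 2.46% of late Eomes cells and 1.28% and 2.22% of microglia.
Relative to non-cycling RG cells of the same library, newborn PyNs had 0.974 (0.479 to 2.24) and 1.04 (0.718 to 1.55) times the PTCH1 level in ferret, and 0.223 (0.122 to 0.381) times in mouse control. The intervals of both sets lie above that of mouse control. Ferret and mouse differ also in stage, sorting and annotation, so species cannot be told apart from these. Held-out RG markers summed to 7372 and 4900 CPM in the PyN gates of ferret, against 34490 and 31490 in its non-cycling RG cells, and to 1143 against 38350 CPM in mouse control. Their part in this and the other differences between species was not tested.

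**Figure D3:**
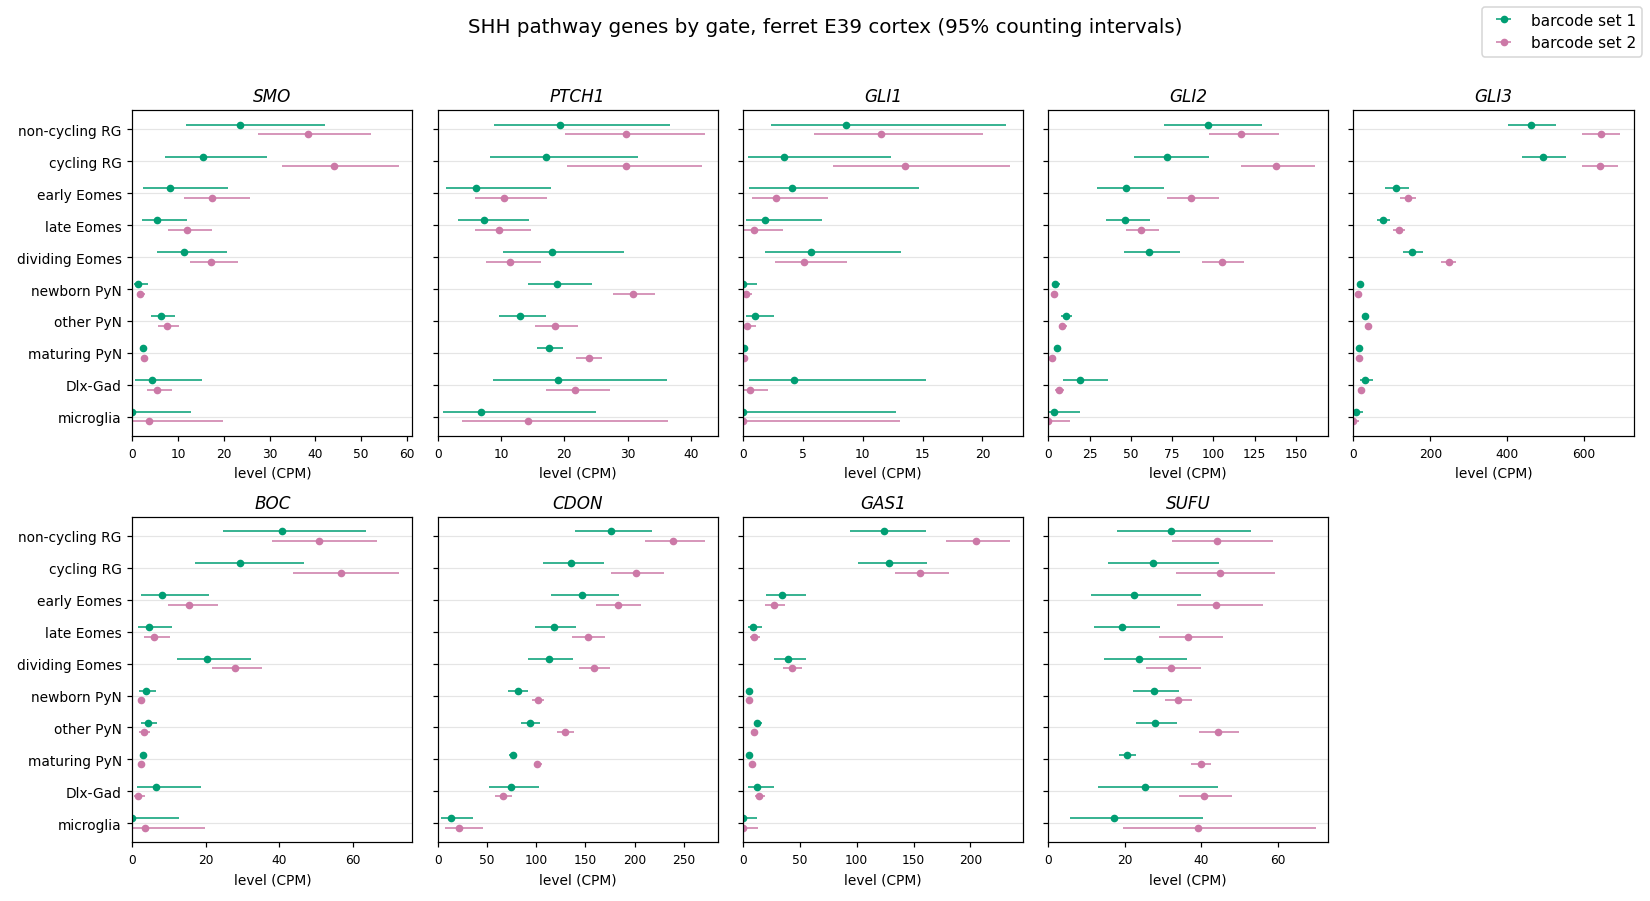
Level of the 9 members measured in ferret E39 cortex in CPM (x axis, linear from 0, a scale of its own in each panel) in 10 gates (y axis), for both barcode sets of 1 embryo. Bars are exact 95% counting intervals. GLI3 and GAS1 lie far lower in PyN than in RG gates, and PTCH1 in newborn PyNs lies at 18.8 and 30.9 CPM, near its RG level.

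CDON was above microglia in ferret PyNs by more than the intervals. It was at 176 CPM (140 to 218) and 240 (211 to 271) in non-cycling RG cells and at 81.5 (71.6 to 92.3) and 102 (95.8 to 108) in newborn PyNs, against 13.8 and 21.4 CPM in microglia. All PyN gates together were 0.456 (0.365 to 0.576) and 0.443 (0.390 to 0.505) times as high as non-cycling RG cells, where mouse control had 0.119 (0.0930 to 0.151). Neither set's interval met that of mouse control.
For GLI2 and GLI3 the order of the species was the other way. GLI3 in PyNs was 0.0396 (0.0335 to 0.0469) and 0.0271 (0.0244 to 0.0302) times its RG level in ferret and 0.146 (0.117 to 0.181) times in mouse control. GLI2 was at 0.0615 and 0.0318 times in ferret and 0.288 times (0.197 to 0.414) in mouse control. SMO was at 0.119 and 0.0815 times in ferret and 0.103 times (0.0492 to 0.195) in mouse, with overlapping intervals.
SUFU showed no order among RG, Eomes and PyN gates in ferret. Maturing PyNs were at 20.6 and 39.9 CPM, non-cycling RG cells at 32.2 and 44.1 CPM and microglia at 17.3 and 39.1 CPM, so none of them stood above the microglial level by more than the intervals. Its Eomes cells were at 0.668 (0.371 to 1.27) and 0.828 (0.601 to 1.16) times the RG level, where mouse control had the 1.85 times given above.

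**Figure D4:**
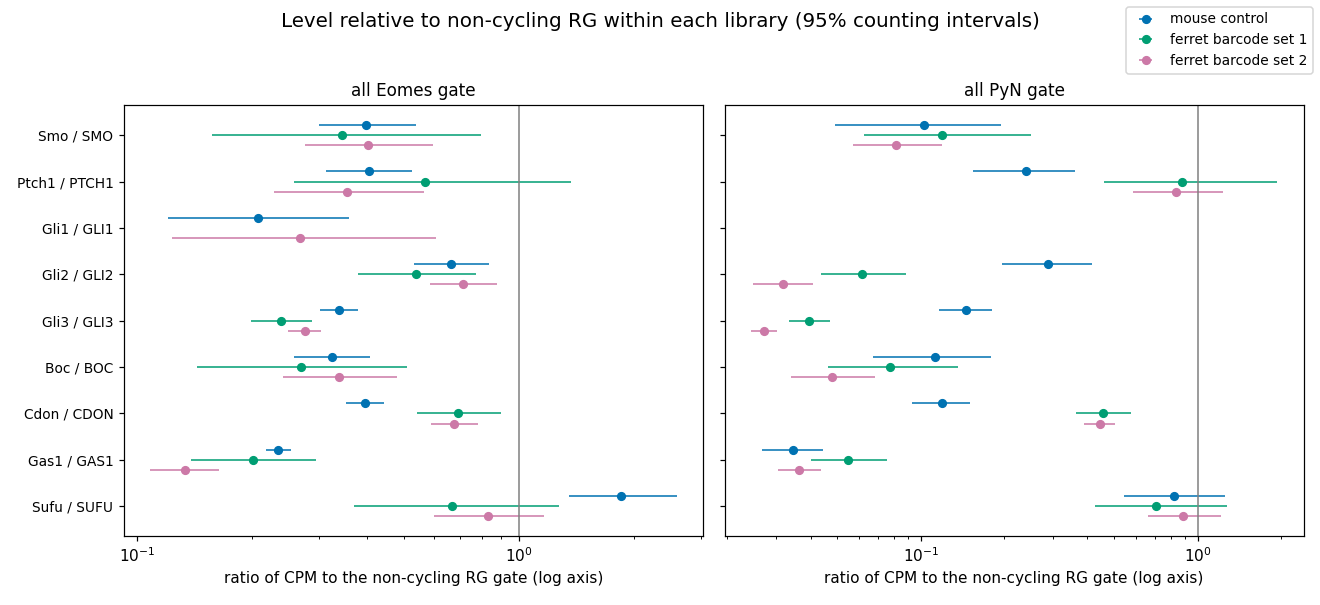
Ratio of CPM in Eomes (left) and PyN (right) gates to non-cycling RG cells of the same library (x axis, log scale), by member (y axis), for mouse control and both ferret barcode sets, with exact 95% counting intervals. Ratios of 0 or with fewer than 20 UMIs are not drawn. On the right, Ptch1 and Cdon lie higher in ferret (0.456 and 0.443 for CDON) than in mouse control (0.119), and Gli2 and Gli3 lie lower.

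Across ferret gates, GLI3 was most like the gene LOC101675320 (Pearson r of 0.984 over 22 gates of both sets), SFXN5 (0.958), MXRA8 (0.954), STON2 (0.954) and MLC1 (0.951). Its nearest members were GAS1 (0.935), GLI2 (0.932), BOC (0.858) and SMO (0.783). PTCH1 was most like FAM124A (0.862), SNRNP48 (0.814), KAZN (0.803), CSMD3 (0.800) and PCDH17 (0.786), and its r with the members compared did not pass the 0.353 of SUFU.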

How the data were processed

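Droplet-based single-cell libraries were made from sorted cells of mouse cortex at E18 and from ferret cortex at E39. The deposited tables hold raw UMI counts per gene and cell, which the authors made with Cell Ranger. The submitters' processing notes name Cell Ranger, StringTie, Seurat 3 and mm10, and the study's methods name a later Seurat version. The versions of the other tools, the annotation and the ferret build are not given in the sources used here. A mouse barcode suffix was assigned to a genotype because its number of cells, 10524 or 7596, equals the number that the study's methods give for control or Smo-cKO. This was the only basis, and if it were wrong every direction would turn. Cells with 750 to 5000 genes and under 10% mitochondrial UMIs were kept, by the limits in the methods. The methods give the deposited numbers of mouse cells as those left by this filter, but 1 control and 354 Smo-cKO cells of the table had fewer and 25 and 33 more genes, and these were left out here. This left 10498 and 7209 mouse cells with 51657121 and 42057782 UMIs and 10185 and 13052 ferret cells with 30548876 and 56090792 UMIs. In ferret 38 barcodes occurred in both sets.

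Gates were applied in the order microglia (at least 3 of 10 markers), vascular (3 of 13), Dlx-Gad (2 of 6), oligodendrocyte precursors (2 of 3), Eomes (1 UMI), RG (4 of 10, with more RG than PyN markers) and PyN (3 of 10, the reverse). Cycling, or dividing, meant 3 of 10 markers, and early Eomes, newborn and maturing PyN cells had a Neurog2, Neurod1 or Mef2c UMI. Some marker and pathway genes, and a gate applied before Eomes that rests on them, are not reported here, and the cells of that gate enter only values over all cells. No doublet caller was run, and cells that met 2 gates or were very deep were left out as alternatives. UMIs were summed per gate and library and scaled to CPM, with exact Poisson intervals for levels, Clopper-Pearson intervals for shares and conditional intervals for ratios. UMIs that are 0 in Smo-cKO were set to a floor of 3 over the group, and no ratio was given under 20 UMIs over both libraries. Expected shares at 2900 UMIs are hypergeometric. The ratio step recovered known folds past 2-fold on simulated counts with counting error only, the model that its intervals assume. The simulation held no differences between embryos, cells or gate contents and no smaller folds, so it does not cover those. Replicates do not exist within a genotype, so no p-value was computed, and the mouse and ferret tables were never put on 1 scale. The members and gene lists were chosen with earlier results of these data known. Named genes are all members, other pathway genes past 2-fold or with the most UMIs in their role, and the 5 genes most like Ptch1 and Gli3. Gene positions come from GENCODE vM21. Python 3.11.15, NumPy 2.4.6, SciPy 1.17.1 and pandas 2.3.3 were used.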

Additional observations from a re-analysis of the deposited data

Results flagged for a closer look

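Cdon and Gas1 are listed because their ratios of Smo-cKO to control lay above 1 in some gates and below 1 in others, with counting intervals that exclude 1 on both sides. The difference between gates was not tested, since there is 1 library per genotype. Cdon had ratios of 1.18 in non-cycling RG cells, 1.14 in cycling RG cells and 1.19 in Eomes cells, and 0.478 in the Dlx-Gad gate. Gas1 had a ratio of 1.11 in Eomes cells, and 0.642 in non-cycling RG cells, 0.561 in cycling RG cells and 0.374 in the Dlx-Gad gate, which became 0.124 to 0.252 under 4 alternatives.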

How the results depend on the processing

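No paired analysis was possible because each mouse genotype has 1 library and no result comes from a test. Of 262 recomputed member ratios, 253 stayed within the counting interval of the reported value, 9 left it, and none past 2-fold changed direction. The 262 are repeats of 39 distinct ratios under the alternatives. Over all recomputed values, also those that are not ratios, 45 of 379 were marked as moved. With 1 more marker per gate the ratio of Gas1 was 0.197 in the Dlx-Gad gate. Cells were also thinned to 2900 UMIs and gated again (8677 of the control library and 6488 of the knockout were deep enough). Smo in cycling RG cells was then at 0.242 by the floor of 3 UMIs. Gas1 was then at 0.471 in PyNs and 0.124 in the Dlx-Gad gate. Sufu was at 1.42 in non-cycling RG cells (0.797 to 2.54) and 0.657 in Eomes cells. Without cells above the 95th percentile of UMIs, Gas1 was at 0.252 in the Dlx-Gad gate. Without cells meeting 2 gates it was at 1.37 in Eomes cells, and as a mean over cells at 0.183 in the Dlx-Gad gate. Values at the floor move with the number of UMIs left, and the cause of the other moves was not tested. At a minimum of 50 UMIs the members past 2-fold lower were 0 in PyNs, by fewer genes tested, and at a fold of 1.5 they were 2 in PyNs. Gli1 was under that minimum in non-cycling RG (29 and 0 UMIs), cycling RG (21 and 0) and Eomes cells (30 and 1), so its calls were lost too. At a fold of 1.5, Gas1 in non-cycling (0.642) and cycling RG cells (0.561) and Gli3 in the Dlx-Gad gate (0.533) were also lower. Over all genes and gates, counts past 2-fold of 197 to 389 became 582 to 1175 at a fold of 1.5 and, where they differed by more than 1.5 times, 78 to 223 at a minimum of 50 UMIs. Promoter motifs and protein identities, which were planned, were not run. Depth limits Gli1, Hhip and every level under about 3 UMIs per gate.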

Other observations

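The vascular and meningeal gate of mouse cortex (64 control and 37 Smo-cKO cells) held Gas1 at 52.8 CPM (24 UMIs) in control and 14.99 CPM (5 UMIs) in Smo-cKO, a ratio of 0.284 (0.0845 to 0.758). Ptch1 had 9 and 3 UMIs there. Oligodendrocyte precursors, cells with UMIs of at least 2 of Pdgfra, Sox10 and Cspg4, numbered 18 and 11 in mouse and held 9 and 7 UMIs of Gas1, 1 and 0 of Ptch1 and 0 of Gli1 in both libraries. In ferret the same gate held 11 and 44 cells in sets 1 and 2, with 2 and 7 PTCH1 UMIs. In ferret vascular cells SUFU was at 38.7 CPM in set 1 and 79.7 in set 2.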
